A study of Mus musculus with 6 samples.

Results

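A set of 10 genes of T cell fate was followed in RNA sequencing counts of EL4, a line of mouse T lymphoma cells, after RGFP966 or vehicle. They are the commitment factors Bcl11b, Tcf7, Lef1, Satb1 and Myb, the E protein genes Tcf3 and Tcf12, and the Id genes Id1, Id2 and Id3. Each was taken by its symbol, and all 10 matched 1 row each among 51912 gene IDs. The 3 RGFP966 libraries came from wild-type EL4 cells exposed to 10 µM RGFP966, which inhibits HDAC3, a histone deacetylase, for 24 h. The 3 vehicle libraries came from the same line given vehicle for 24 h. EL4 is a single line, and no label tells if replicate libraries were grown as separate cultures, so p-values measure only the spread between these libraries.

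A precursor becomes a T cell when a small set of transcription factors closes off other fates. TCF1, the product of Tcf7, opens the T cell program with its relative LEF1, and BCL11B then completes commitment and keeps alternative programs silent. SATB1 folds and organises chromatin in thymocytes, and MYB sustains early thymocytes. E proteins, here E2A from Tcf3 and HEB from Tcf12, are helix-loop-helix factors that bind DNA in pairs at the E-box, the letters CANNTG. Id proteins have the helix-loop-helix but no DNA-binding stretch, so that they pair with E proteins and keep them off DNA. The balance between E and Id proteins sets many steps of lymphocyte development.

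Library totals ran from 12935443 to 14768540 counts in the RGFP966 group and from 15380331 to 16451017 in the vehicle group. Levels are CPM, counts over the library total after TMM scaling (trimmed mean of M values; factors between 0.993 and 1.01). Of 13484 genes that passed the filter on low counts, 23.3% were called at an adjusted p under 0.05 (11.4% higher and 11.9% lower with RGFP966, edgeR's quasi-likelihood test with Benjamini-Hochberg adjustment over all of them). Among the 2621 genes over 100 CPM, 13.5% were called higher and 22.2% lower. Hdac3 averaged 85.9 CPM in RGFP966 and 89.1 CPM in vehicle libraries and was not called (adjusted p = 0.482). The 10 T cell markers were all detected and tested, 2 higher and 3 lower, with a summed level of 2077 to 2148 CPM in RGFP966 and 2115 to 2137 CPM in vehicle libraries. The submitters' extraction text speaks of retinas. The 9 retina markers summed to 2.64 to 3.62 CPM in RGFP966 and 3.20 to 3.71 CPM in vehicle libraries, with Crx and Gnat1 at 0. The 7 NK cell markers had 1 count or fewer in each library, with Klrb1c, Klra8 and Klrd1 at 0. The B cell markers summed to 2.02 to 2.14 CPM in RGFP966 and 1.96 to 2.81 CPM in vehicle libraries, with Ms4a1 at 0. The myeloid markers summed to 12.33 to 12.95 CPM in RGFP966 and 12.26 to 13.75 CPM in vehicle libraries, with Adgre1 and Elane at 0. The 8 fibroblast and endothelial markers summed to 62.1 to 64.8 CPM in RGFP966 and 50.1 to 53.2 CPM in vehicle libraries, nearly all of it Pecam1, with Col3a1, Pdgfrb and Kdr at 0. Pecam1 was called higher (adjusted p = 3.24e-04). Whether that difference has a part in the results was not tested. In bulk RNA, fewer cells of a type and less RNA per cell cannot be told apart.

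Of the 10 genes, 8 passed the filter and 4 of them were called, 2 higher and 2 lower, against 23.3% of all tested genes. Bcl11b, Tcf7, Myb, Tcf3 and Tcf12 lay over 100 CPM, where 35.7% of tested genes were called. Id2 rose, Tcf3 and Bcl11b fell, and Tcf12 rose by a small step whose call depended on single libraries. The median log2 fold change of the 8 was 0.03, beside -0.0019 over all tested genes. RGFP966 and vehicle libraries did not overlap in 5 of the 8, against 36.3% of all tested genes. Satb1 had no count in any library and Id1 had 5 counts or fewer in each, so neither was tested. The plot of levels by library shows all 10.

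**Figure D1:**
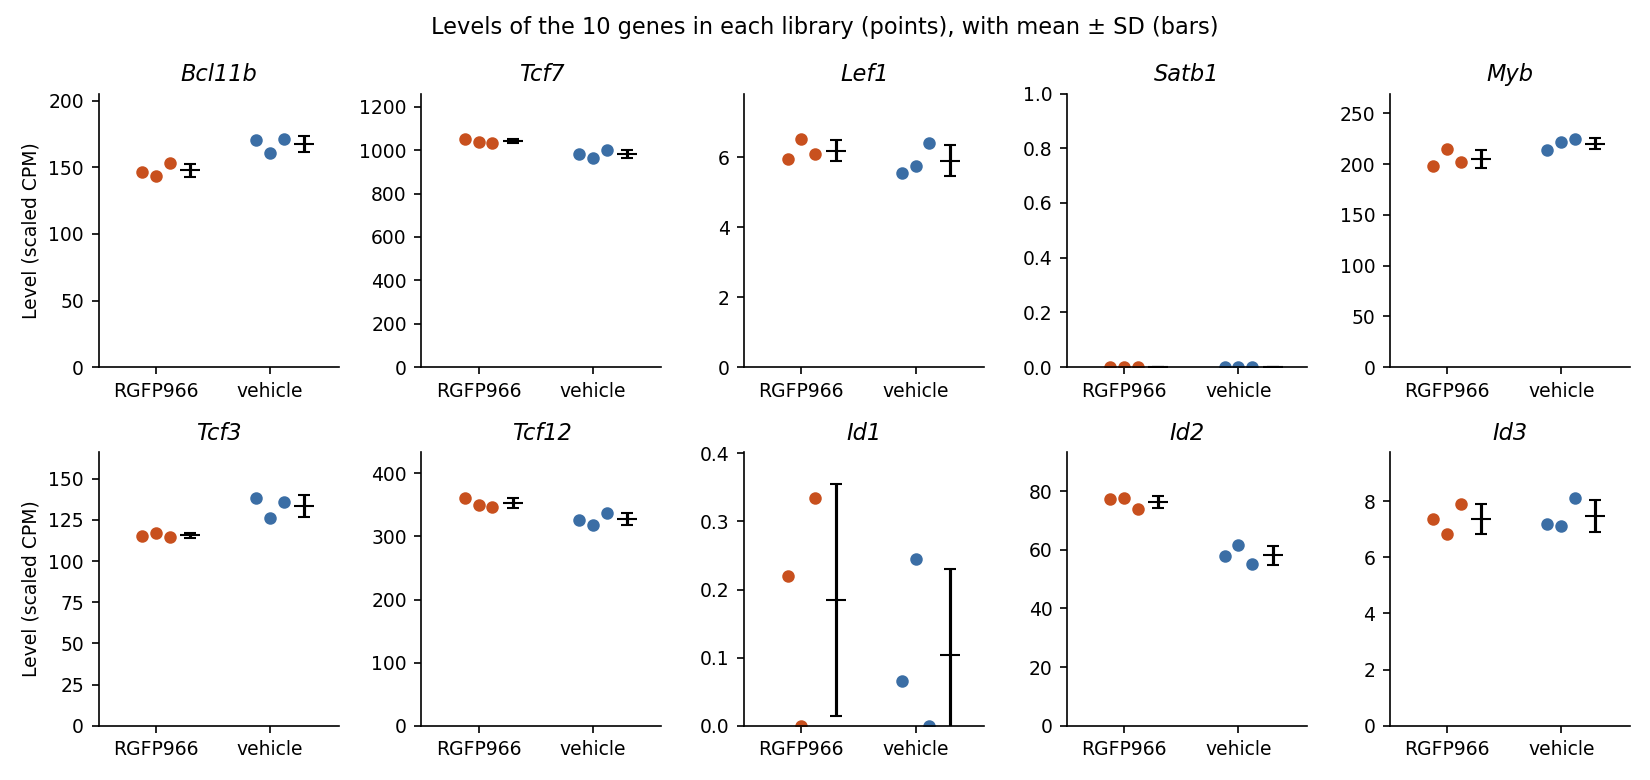
Level of each of the 10 genes (scaled CPM, linear axis from 0) in the 3 RGFP966 libraries and the 3 vehicle libraries, as points, with the mean ± SD beside them as bars. Id2, Tcf12 and Tcf7 (not called) stood higher and Bcl11b and Tcf3 lower in all 3 RGFP966 libraries, and Satb1 was at 0 in all 6.

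The promoter windows of Id2, Tcf3 and Bcl11b are shown because these 3 genes were called under every setting tried and each has 1 annotated start in the table used. The sequences are RefSeq's on GRCm38.p6, read 5′ to 3′ on the gene's strand, from 250 bases before the start to 50 after it. Capitals mark E-boxes (CANNTG, which reads the same in form on either strand). The Id2 window is chr12:25096043-25096342, minus strand. In GENCODE M21, used here for gene positions, Id2 begins further upstream, at 25097140, outside this window. The Tcf3 window is chr10:80433586-80433885, minus strand, and the Bcl11b window is chr12:108003365-108003664, minus strand.
Id2: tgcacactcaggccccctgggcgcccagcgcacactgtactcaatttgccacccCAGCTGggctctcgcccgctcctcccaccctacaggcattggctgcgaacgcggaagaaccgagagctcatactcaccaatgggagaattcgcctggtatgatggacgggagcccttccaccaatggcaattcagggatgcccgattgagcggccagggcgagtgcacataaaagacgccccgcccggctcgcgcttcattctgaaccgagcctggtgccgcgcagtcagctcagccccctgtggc
Tcf3: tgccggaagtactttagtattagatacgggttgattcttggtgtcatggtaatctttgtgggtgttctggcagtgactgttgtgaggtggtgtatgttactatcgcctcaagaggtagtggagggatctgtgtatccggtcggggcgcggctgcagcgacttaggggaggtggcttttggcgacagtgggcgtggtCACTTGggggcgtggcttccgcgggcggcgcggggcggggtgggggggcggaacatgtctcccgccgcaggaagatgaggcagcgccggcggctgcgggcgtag
Bcl11b: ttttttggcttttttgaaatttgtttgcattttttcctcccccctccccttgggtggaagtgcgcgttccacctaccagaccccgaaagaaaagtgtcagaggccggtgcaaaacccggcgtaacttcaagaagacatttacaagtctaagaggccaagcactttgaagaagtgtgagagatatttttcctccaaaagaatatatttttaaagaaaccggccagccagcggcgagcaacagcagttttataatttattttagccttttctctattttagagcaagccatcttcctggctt

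The Id2 window held 1 E-box, CAGCTG, beginning at position -196 from the start, and the Tcf3 window held 1, beginning at -54. In the Bcl11b window no CANNTG was found in these 300 bases. RefSeq windows were found for 9 of the 10 genes, 19 windows in all since some genes have several starts, and 16 of them held CANNTG. Id1 had no entry. The letters are common: CANNTG is in 72.3% of all 32817 windows of this length, and CAGCTG in 16.3%. The TCF motif letters CTTTGA, searched on both strands, occurred 1 time in the Bcl11b window and are in 5251 of the 32817 windows. CTTTGT occurred 1 time in the Tcf3 window and is in 18.7%. A Lef1 window held both, and some windows of Tcf12, Myb and Satb1 held CTTTGT. The MYB motif letters TAACNG, also searched on both strands, were in the single Id3 window, in some windows of Lef1 and Satb1, and in 23.3% of all windows. These matches describe the windows only.

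Id2, an Id protein gene that lymphoid cells also use to enter innate fates, showed the largest change of the 8 tested genes. Id2 (ENSMUSG00000020644, chromosome 12, 25093799 to 25097140, minus strand, mm10) had 77.2, 77.8 and 73.8 CPM in RGFP966 libraries 1 to 3, against 57.8, 61.5 and 55.1 CPM in vehicle libraries 1 to 3. All 3 RGFP966 libraries were above all 3 vehicle libraries. The log2 fold change was 0.39 ± 0.05 (SE; 95% interval 0.28 to 0.50; adjusted p = 1.52e-07), an increase of 31.0%, and it ranked at place 214 of the 13484 genes by p. Over all 15 alternatives the log2 fold change stayed between 0.36 and 0.43, with an adjusted p of at most 1.49e-05.

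Id3, the Id gene that receptor signals switch on through EGR factors in thymocytes, was far lower and showed no detectable difference. Id3 (ENSMUSG00000007872, chromosome 4, 136143497 to 136145755, plus strand) had 7.35, 6.82 and 7.91 CPM in RGFP966 libraries, against 7.17, 7.10 and 8.12 CPM in vehicle libraries. The groups overlapped. Its log2 fold change was -0.02 (95% interval -0.31 to 0.27; adjusted p = 0.950), and its interval lay just below that of Id2. The difference between the Id2 and Id3 changes was not tested. Id1 (ENSMUSG00000042745, chromosome 2, 152736251 to 152737410, plus strand), the Id gene best known as a target of bone morphogenetic protein signals, had 3, 0 and 5 counts in RGFP966 libraries and 1, 4 and 0 counts in vehicle libraries. Its 8 counts among 41268272 in RGFP966 and 5 among 47605048 in vehicle libraries give no fold change.

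The E protein genes moved in opposite directions. Tcf3 (ENSMUSG00000020167, chromosome 10, 80409514 to 80433647, minus strand) had 115, 117 and 115 CPM in RGFP966 libraries, against 139, 126 and 136 CPM in vehicle libraries. Every RGFP966 library was below every vehicle library, and the vehicle libraries were the more spread (SD 1.43 CPM in RGFP966 and 6.64 CPM in vehicle, n = 3 each). Tcf3 fell by 0.21 ± 0.04 on the log2 scale (SE; 95% interval -0.30 to -0.12; adjusted p = 3.83e-04), a change of -13.4%, and kept its call in all 15 alternatives (log2 fold change -0.25 to -0.18).

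Tcf12 (ENSMUSG00000032228, chromosome 9, 71842688 to 72111871, minus strand) had 362, 351 and 347 CPM in RGFP966 libraries, against 326, 318 and 337 CPM in vehicle libraries. The groups did not overlap, but the gap between the lowest RGFP966 and the highest vehicle library was narrow. The log2 fold change was 0.11 ± 0.04 (SE; 95% interval 0.03 to 0.18; adjusted p = 0.0257), an increase of 7.89%. The call was lost without vehicle library 1 (adjusted p = 0.0691), vehicle library 2 (0.0885), RGFP966 library 1 (0.161) or RGFP966 library 2 (0.0505), in a range from 4.89e-03 to 0.161 over all alternatives.

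Ratios of counts within a library need no scaling between libraries. The Tcf3 count was 0.318, 0.334 and 0.330 of the Tcf12 count in RGFP966 libraries, against 0.424, 0.395 and 0.403 in vehicle libraries. The Id2 count was 0.671, 0.664 and 0.644 of the Tcf3 count in RGFP966 libraries, against 0.417, 0.489 and 0.406 in vehicle libraries. The Id2 count was 0.213, 0.222 and 0.212 of the Tcf12 count in RGFP966 libraries, against 0.177, 0.193 and 0.163 in vehicle libraries. In each ratio the groups stood apart, and vehicle library 2 was the vehicle library nearest to the RGFP966 group. Tcf3 was called lower, and Id2 and Tcf12 higher, in these same counts. The ratios of Tcf3 with either gene were thus bound to differ and are no separate result.

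To set genes beside each other, levels were divided by the length of each gene's merged exons (CPM per kb). On this scale the summed level of Id1, Id2 and Id3 was 0.695, 0.692 and 0.689 of that of Tcf3 and Tcf12 in RGFP966 libraries, against 0.502, 0.569 and 0.490 in vehicle libraries. The ratio averaged 0.692 ± 0.0026 in RGFP966 and 0.520 ± 0.0427 in vehicle libraries (SD, n = 3 each), 33.0% higher with RGFP966, and is given as a description with no test. Id2 made up 86.5% to 89.3% of the Id sum in RGFP966 and 83.3% to 85.8% in vehicle libraries. Id2 was called higher in these same counts, so the ratio largely restates its change and is no separate result. The Id sum was 35.5 ± 0.51 in RGFP966 and 28.1 ± 1.18 CPM per kb in vehicle libraries, and the E protein sum 51.4 ± 0.552 in RGFP966 and 54.1 ± 2.11 CPM per kb in vehicle libraries (SD, n = 3). The E protein sums of the groups overlapped, with 51.74 in RGFP966 library 1 and 51.67 CPM per kb in vehicle library 2. With the longest coding transcript as the length, the ratio was 0.469 in RGFP966 and 0.365 in vehicle libraries, 28.3% higher. The other E protein gene, Tcf4, added little, at 1.10 CPM in RGFP966 and 0.781 CPM in vehicle libraries.

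**Figure D2:**
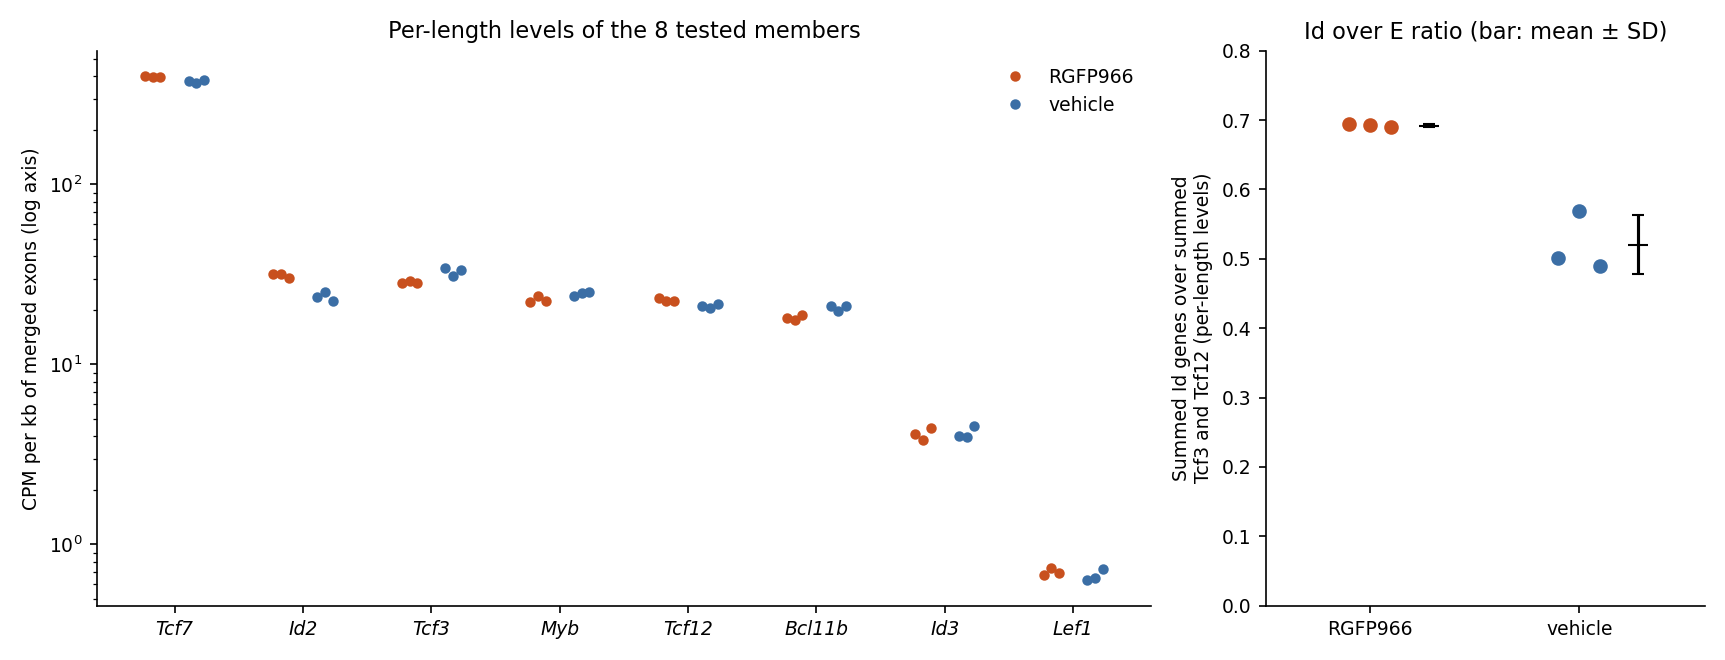
Left, per-length level (CPM per kb of merged exons, log axis) of the 8 tested genes in each library, in the order of their RGFP966 means; right, the summed Id level over the summed Tcf3 and Tcf12 level in each library (linear axis from 0), with mean ± SD as bars. Tcf7 stood at 394 to 400 in RGFP966 and 368 to 381 CPM per kb in vehicle libraries, far above the rest. The Id over E ratio was higher in all 3 RGFP966 libraries, which largely restates the change of Id2.

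The per-length order ran from Tcf7 to Lef1. Tcf7 averaged 396 CPM per kb in RGFP966 and 374 in vehicle libraries, and Id3 and Lef1 were lowest, at 4.11 and 0.704 CPM per kb in RGFP966 and 4.17 and 0.671 CPM per kb in vehicle libraries. Id2, Tcf3, Myb, Tcf12 and Bcl11b lay close together, between 18.2 and 31.3 CPM per kb in RGFP966 and between 20.6 and 33.0 CPM per kb in vehicle libraries. Id2 stood above Tcf3 in each RGFP966 library, at 31.7, 31.9 and 30.3 against 28.5, 29.0 and 28.4 CPM per kb. It stood below Tcf3 in each vehicle library, at 23.7, 25.2 and 22.6 against 34.3, 31.2 and 33.6 CPM per kb. The libraries of Myb and Tcf12 overlapped in the RGFP966 group, and in the vehicle group so did those of Id2 and Myb and those of Tcf12 and Bcl11b. This middle order depends on the length used: per kb of the longest coding transcript, Id2 and Tcf3 averaged 38.7 and 39.2 CPM per kb in RGFP966 and 29.5 and 45.2 CPM per kb in vehicle libraries, and Tcf12 and Myb lay above both.

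Among the commitment factors, Bcl11b was the 1 gene called. Bcl11b (ENSMUSG00000048251, chromosome 12, 107910403 to 108003602, minus strand), the zinc finger factor that completes commitment, had 147, 143 and 153 CPM in RGFP966 libraries, against 170, 161 and 171 CPM in vehicle libraries. The groups did not overlap. It fell by 0.18 ± 0.04 on the log2 scale (SE; 95% interval -0.27 to -0.10; adjusted p = 9.77e-04), a change of -11.8%, with an adjusted p of at most 0.0108 over all 15 alternatives.

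Tcf7 (ENSMUSG00000000782, chromosome 11, 52252371 to 52283014, minus strand) was among the most abundant transcripts of the cells, at the 99.5th percentile of tested genes by CPM. It had 1051, 1036 and 1034 CPM in RGFP966 libraries, against 981, 966 and 999 CPM in vehicle libraries. The groups did not overlap, yet the difference was not called, with a log2 fold change of 0.08 ± 0.03 (SE; 95% interval 0.01 to 0.15; adjusted p = 0.0738). It was called under 5 alternatives of scaling, filter or test, with adjusted p between 0.0141 and 0.0424, and in none of the 6 fits that left out a library.

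Myb (ENSMUSG00000019982, chromosome 10, 21124935 to 21160984, minus strand) had 198, 215 and 202 CPM in RGFP966 libraries, against 214, 222 and 225 CPM in vehicle libraries. RGFP966 library 2 lay among the vehicle values. The log2 fold change was -0.10 ± 0.04 (SE; 95% interval -0.18 to -0.02; adjusted p = 0.0584), and Myb was called without RGFP966 library 2 (-0.14, adjusted p = 0.0224) and with the replicate number as a block (-0.10, adjusted p = 0.0363). An antisense gene, Gm26577, covers 6.26% of its exons.

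Lef1 (ENSMUSG00000027985, chromosome 3, 131110471 to 131224356, plus strand) had 5.95, 6.51 and 6.10 CPM in RGFP966 libraries, against 5.54, 5.76 and 6.40 CPM in vehicle libraries. The groups overlapped, and the interval of the log2 fold change, -0.25 to 0.38 around 0.07 (adjusted p = 0.807), was wide. The antisense gene Gm43352 covers 13.7% of the Lef1 exons. The other 6 tested genes share at most 0.329% of their 50-base words with other annotated genes.

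**Figure D3:**
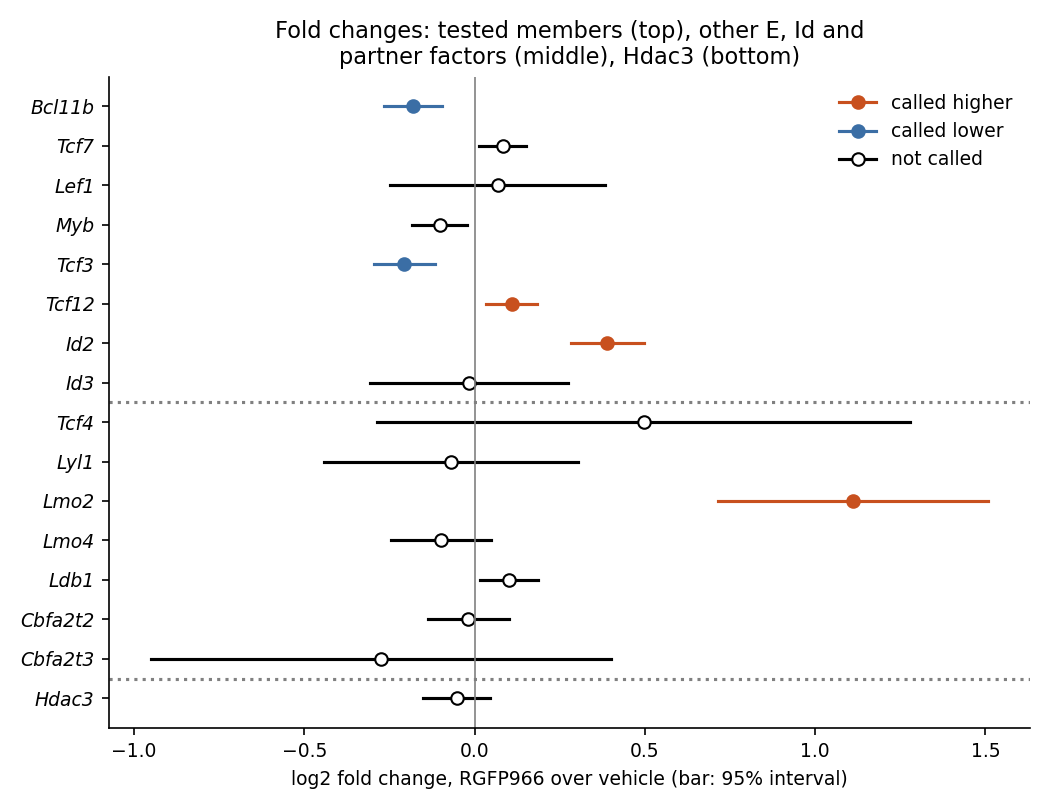
Log2 fold change, RGFP966 over vehicle, with its 95% interval (bars), for the 8 tested genes, 7 other E, Id and partner factors, and Hdac3. Filled points were called at an adjusted p under 0.05; Id2 at 0.39 and Lmo2 at 1.11 lie right of 0, and Tcf3 at -0.21 and Bcl11b at -0.18 lie left of it.

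Satb1 had 0 counts in all 6 libraries. Satb1 (ENSMUSG00000023927, chromosome 17, 51736187 to 51833290, minus strand) has 19027 bases of merged exons, and the deposited table holds 88873320 counts in all. A count of 0 allows a level of up to 0.201 to 0.233 CPM in RGFP966 libraries and 0.184 to 0.196 CPM in vehicle libraries (3 counts in each library, counting error alone). Of the 420 protein-coding genes with at least 15000 bases of merged exons, 10.2% had no count in any library. The 6 annotated genes that lie within or across Satb1 had 0 counts, as did the next 3 upstream, so that 10 annotated genes in a stretch of 127 kb had no count in any library. All of them but Satb1 are gene models that the annotation marks as unconfirmed (biotype TEC). The share of such models at 0 over the whole table was not computed, so these zeros add little to that of Satb1. The nearest genes with counts were the noncoding Gm19585 upstream, with 8 counts in RGFP966 and 4 in vehicle libraries, and downstream Tbc1d5, with 2646 counts in RGFP966 and 3124 in vehicle libraries.

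**Figure D4:**
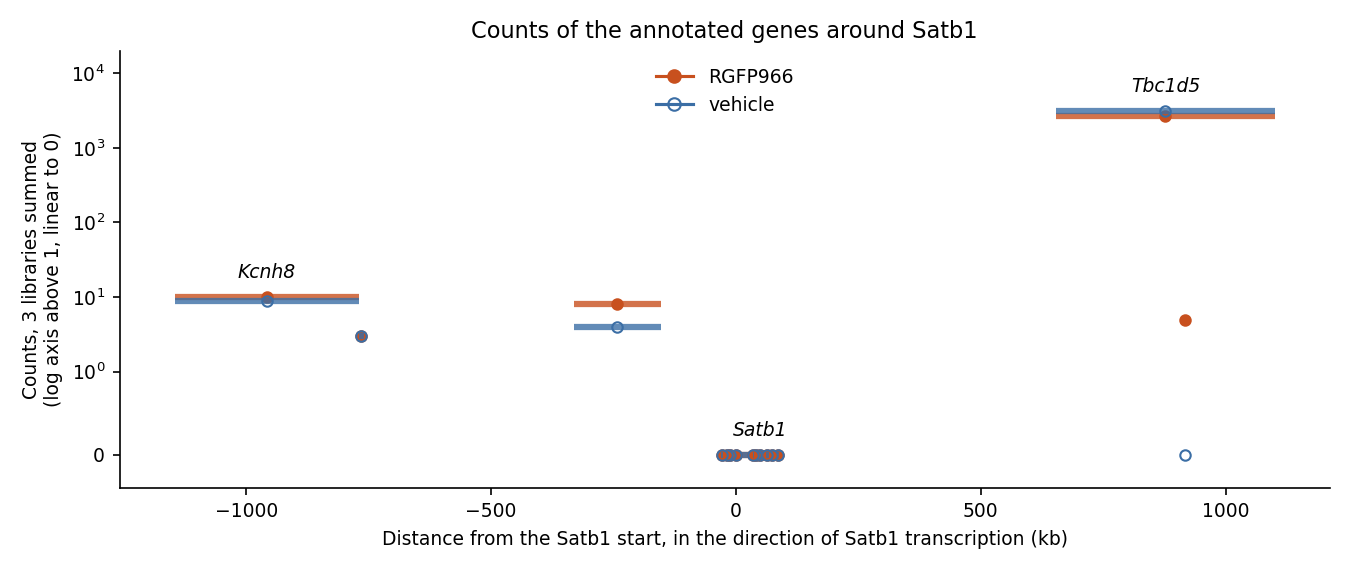
Counts summed over the 3 libraries of each group (log axis above 1, linear to 0) for the annotated genes from Kcnh8 to Tbc1d5, placed by their distance in kb from the Satb1 start. Satb1 and 9 unconfirmed gene models (biotype TEC) in and next to it lie at 0 in both groups, while Tbc1d5 reached 2646 counts in RGFP966 and 3124 in vehicle libraries.

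Partners of the E and Id proteins were taken from a list of 11, of which 7 were tested and 1 was called (median log2 fold change -0.02), against 23.3% of all tested genes (median -0.0019). Lmo2, a bridging protein that links helix-loop-helix factors to other DNA-binding proteins and is normally shut off in T cells, had 4.78, 6.05 and 6.43 CPM in RGFP966 libraries, against 2.54, 2.82 and 2.62 CPM in vehicle libraries. It rose by 1.11 ± 0.20 on the log2 scale (SE, adjusted p = 2.11e-05) from a low level, and no RGFP966 library overlapped a vehicle library. Its binding partner Ldb1 was at 137 CPM in RGFP966 and 128 CPM in vehicle libraries and was not called (0.10, adjusted p = 0.0833), although it was called under 3 alternatives (adjusted p 0.0272 to 0.0440). Lyl1, Lmo4, Cbfa2t2, Cbfa2t3 and Tcf4 measured -0.07, -0.10, -0.02, -0.28 and 0.50 and were not called (adjusted p 0.370 to 0.866). Tal1 and Id4 had 0 counts, and Lmo1 and Runx1t1 had 2 or fewer in each library. The count of higher genes was 2 with upper-quartile factors or library totals alone.

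Of 14 genes known as E protein targets in thymocytes, 7 were tested and 4 called, each higher, with a median log2 fold change of 0.31. Over all tested genes 23.3% were called, 11.4% higher, with a median of -0.0019. Dntt, the polymerase that adds untemplated nucleotides to rearranging receptor genes, averaged 73.4 CPM in RGFP966 and 40.6 CPM in vehicle libraries (0.85 ± 0.06, SE; adjusted p = 1.30e-16). The chemokine receptor gene Ccr7 averaged 5.79 CPM in RGFP966 and 2.22 CPM in vehicle libraries (1.37 ± 0.22; adjusted p = 2.42e-06). Il7r, the interleukin-7 receptor gene, rose by 0.27 (adjusted p = 1.60e-06) and Socs1, an inhibitor of cytokine signals, by 0.43 (adjusted p = 2.57e-04). Rag1 and Rag2 had 0 counts, and Ptcra, Notch1 and Notch3 had 3 counts or fewer in each library. The list holds both genes that E proteins raise and genes that they lower. Like the other lists, it was chosen with earlier results of these data known, so its share of calls is only a description.

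Among 15 progenitor genes that are silenced during commitment, 6 were tested and 4 were called, each higher, with a median of 0.54. Of all tested genes 11.4% were called higher. This list too was chosen with earlier results of these data known, so its share of calls is only a description. Irf8, a myeloid and B cell factor, averaged 9.41 CPM in RGFP966 and 5.68 CPM in vehicle libraries (0.73 ± 0.14, SE; adjusted p = 1.10e-04). Flt3, a cytokine receptor of progenitors, averaged 33.0 CPM in RGFP966 and 25.6 CPM in vehicle libraries (0.36 ± 0.08; adjusted p = 3.59e-04), and Nfe2, an erythroid and megakaryocyte factor, 2.39 CPM in RGFP966 and 1.04 CPM in vehicle libraries (adjusted p = 2.28e-03). Kit, the stem cell factor receptor gene, rose by 0.87 (adjusted p = 0.0350), but lost the call in the DESeq2 Wald test (0.0987) and without vehicle library 1 (0.103), vehicle library 2 (0.131), RGFP966 library 1 (0.171) or RGFP966 library 3 (0.118). With a minimum mean of 5 CPM, which removes Nfe2 and Kit, 2 genes of the list were called. Spi1 and Bcl11a had at most 6 and 1 counts in a library, and Hhex, Gata2, Mycn and Cebpa had 0. Genes under 10 CPM as a whole had a median log2 fold change of 0.08, with 8.78% called higher and 1.89% lower. Of 13 innate lymphoid and NK genes listed as held down by BCL11B, 5 were tested (median 0.13). Gzmb, the granzyme B gene, was the 1 called, against 23.3% of all tested genes. It averaged 4.81 CPM in RGFP966 and 2.43 CPM in vehicle libraries (0.98 ± 0.21; adjusted p = 3.25e-04). Whether BCL11B acts on these genes in EL4 cells was not tested. The filter at 5 CPM removes Gzmb. Zbtb16 had 0 counts.

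Relatives and cofactors of TCF1 and LEF1, with Wnt feedback genes, went both ways: of 17 tested 6 were higher and 3 lower (median 0.01), against 11.4% higher and 11.9% lower of all tested genes. Without vehicle library 3 the lower count was 1. Tle3, a corepressor that TCF factors recruit, averaged 176 CPM in RGFP966 and 142 CPM in vehicle libraries (0.31 ± 0.04, SE; adjusted p = 1.16e-07). Tle2, of the same family, rose by 0.96 from a low level (adjusted p = 4.68e-03; 0.0622 without RGFP966 library 3). Nkd1, a Wnt feedback inhibitor, rose by 0.62 (adjusted p = 1.96e-03) and Myc, a transcription factor gene of cell growth, by 0.18 (adjusted p = 3.55e-04). In a list of 7 genes around MYB and SATB1 (median -0.13), Mybl2, a cell cycle member of the MYB family, fell by 0.18 (adjusted p = 1.65e-03), with 19.3% of its 50-base words shared with other genes. It was the 1 member called, against 23.3% of all tested genes, and without vehicle library 2 the count was 2.

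Of 17 tested factors of the T lineage outside the 10 genes, 6 were higher and 1 lower (median 0.02), against 11.4% higher and 11.9% lower of all tested genes. Zbtb7b, which directs the CD4 lineage, averaged 58.0 CPM in RGFP966 and 43.8 CPM in vehicle libraries (0.41 ± 0.06, SE; adjusted p = 4.77e-07). Runx1, a factor of early thymocytes, rose by 0.35 (adjusted p = 7.33e-05) and the zinc finger repressor gene Zeb2 by 0.36 (adjusted p = 8.17e-04). Cbfb, which encodes the shared partner of the RUNX proteins, fell by 0.27 (adjusted p = 9.74e-07). The lower count was 4 without vehicle library 2, and 2 without RGFP966 library 1 or with the replicate block.

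Complexes that BCL11B and TCF1 use for repression had 13 tested members, with 3 higher and 2 lower (median 0.0051), against 11.4% higher and 11.9% lower of all tested genes. Mbd3, a subunit of the NuRD complex that BCL11B recruits, averaged 128 CPM in RGFP966 and 166 CPM in vehicle libraries (-0.38 ± 0.04, SE; adjusted p = 4.68e-10). The NuRD genes Gatad2b and Mta2 measured 0.14 (adjusted p = 0.0192) and -0.11 (adjusted p = 0.0233), and Hdac1 0.13 (adjusted p = 0.0103; 35.5% of its 50-base words are shared, with Gm10093 most). The Gatad2b call was lost without vehicle library 2 (0.0712) or RGFP966 library 2 (0.164), the Hdac1 call without vehicle library 1 (0.0686) or RGFP966 library 2 (0.117), and the Mta2 call with upper-quartile factors (0.0707) and without any 1 library other than vehicle library 2 (0.0574 to 0.186). The higher count was 1 without vehicle library 1 or 2, and no higher call was kept without RGFP966 library 2. The lower count was 1 in the settings in which Mta2 lost its call.

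Genes of the signals that reach Id genes had 10 tested members of 14, with 2 higher and 1 lower (median 0.04), a share of calls near the 23.3% of all tested genes. Skil, an inhibitor of SMAD factors, averaged 22.7 CPM in RGFP966 and 16.2 CPM in vehicle libraries (0.49 ± 0.09, SE; adjusted p = 5.71e-05). Smad4, the shared SMAD, measured -0.12 (adjusted p = 0.0116; 0.110 without vehicle library 1 and 0.0523 without RGFP966 library 2). Smad7, an inhibitory SMAD, measured 0.67 at 3.10 CPM in RGFP966 and 1.95 CPM in vehicle libraries (adjusted p = 0.0408), and lost its call in 7 of 14 alternatives (adjusted p up to 0.178), among them those without vehicle library 2 or 3 or any 1 RGFP966 library. The higher count was 1 with any 1 RGFP966 library left out, with no filter and in the DESeq2 Wald test. The EGR gene Egr1 was at 16.03 CPM in RGFP966 and 18.1 CPM in vehicle libraries (adjusted p = 0.608).

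**Figure D5:**
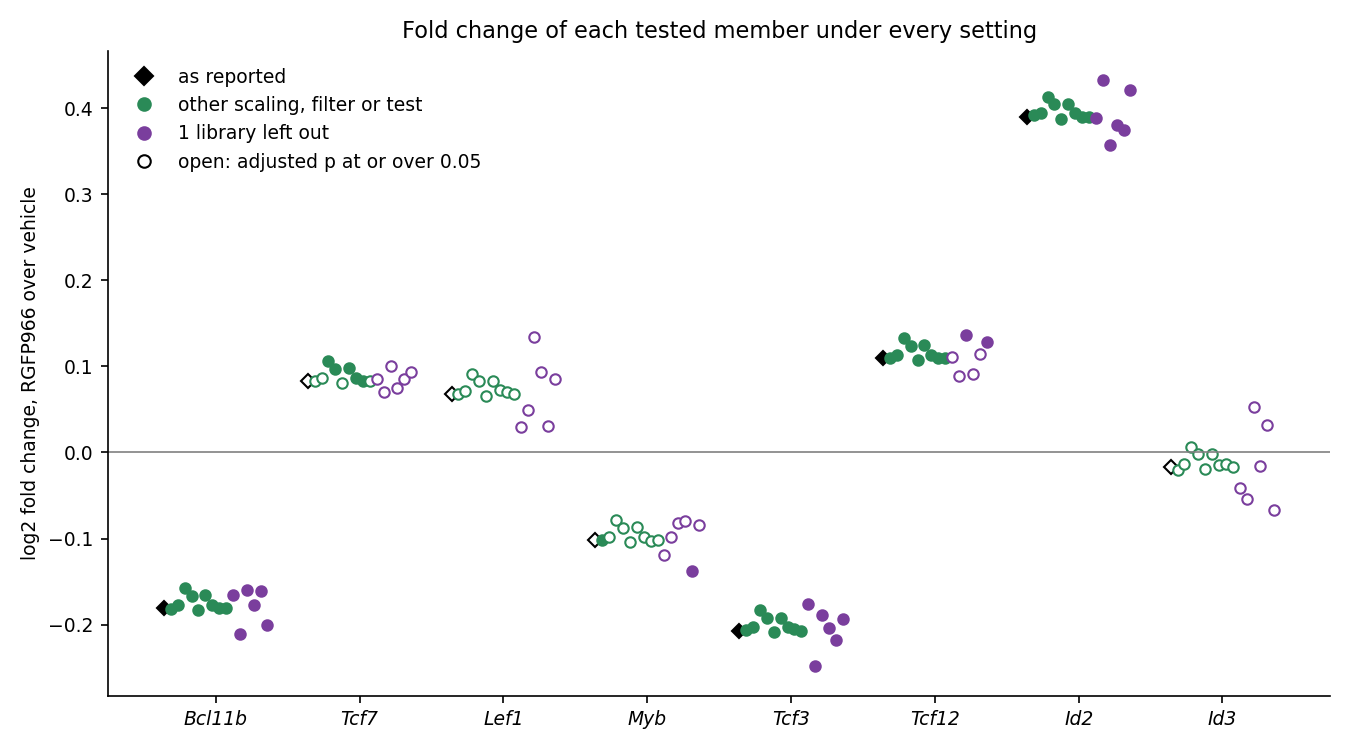
Log2 fold change of each of the 8 tested genes, RGFP966 over vehicle, as reported (diamond) and under each alternative (circles), filled where the adjusted p was under 0.05. Id2, Tcf3 and Bcl11b were filled throughout, while Tcf12, Tcf7 and Myb changed sides of the threshold and Id3 lay on both sides of 0.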

How the data were processed

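RNA sequencing of 6 EL4 libraries was used. The deposited table holds the authors' raw read counts for 51912 Ensembl mouse gene IDs. HTSeq 0.6.0, TopHat2, HISAT2 2.1.0, Bowtie2 2.2.3, CASAVA and the build mm10 are listed, with no role, per the submitters' processing notes. Strand setting and annotation release: not given in the sources used here. Without a known strand setting, reads of antisense partners cannot be told apart. Symbols covered 51633 IDs, and exons and positions are those of GENCODE M21 (mm10).

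Counts of all 6 libraries were fitted in edgeR 4.0.16 (R 4.3.3) with group as the only term, filterByExpr at its defaults (minimum count 10), TMM scaling and the robust two-sided quasi-likelihood test. Standard errors were obtained by dividing the absolute fold change (log2) by the root of F. The script was tested on simulated data. Alternatives used DESeq2 1.42.0, limma 3.58.1 voom, other factors and filters, a replicate block, and each library left out in turn. All 10 genes are named; from each list, up to 4 called members of smallest adjusted p, and every tested partner of the E and Id proteins. Genes named beyond this were chosen after their values were seen. A few listed genes are not reported here. The members and lists were chosen with earlier results of these data known. Libraries of 1 group differed by 2.22 to 3.53 times counting error (chi-square over its degrees of freedom), and no library repeated another. The promoter windows are RefSeq's. Intervals of fold changes come from the edgeR fit and take in the spread between libraries. The floors of 3 counts cover counting error only, since duplicate reads cannot be told from separate molecules.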

Additional observations from a re-analysis of the deposited data

How the results depend on the processing

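Id2, Tcf3 and Bcl11b kept direction and call under all 15 alternatives, with log2 fold changes of 0.36 to 0.43, -0.25 to -0.18 and -0.21 to -0.16. Tcf7 was called with upper-quartile factors (0.11), library totals alone (0.10), a minimum mean of 5 CPM (0.10), the DESeq2 Wald test (0.087) and limma-voom (0.083), and measured 0.07 to 0.10 with a library left out. Myb was called with the replicate block (-0.10), and measured -0.14 to -0.079 with a library left out. Tcf12 measured 0.089 to 0.14 with a library left out, and Lef1 0.03 to 0.13. Id3, never called, turned to 0.0063 with upper-quartile factors, to 0.052 without vehicle library 3 and to 0.032 without RGFP966 library 2, in a range of -0.067 to 0.052 with a library left out. With no filter, Id1 measured 0.80 ± 1.10 (SE, adjusted p = 0.714). With a library left out, 1 to 2 of the 10 genes were higher and 2 to 3 lower, and 2391 to 2821 of all genes were called, against 3145. Leaving out a library changes both the number of libraries and which ones are used, and the cause of these changes was not tested. Rises made up 49.1% of all calls, and 59.1% with upper-quartile factors (1838 higher, 1270 lower).

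The labels share replicate numbers between groups, but same-numbered libraries did not deviate together (correlations -0.0182, 0.0132 and 0.0084). With the replicate block 3431 genes were called, and 2 of the 10 genes were higher and 3 lower. The Id over E ratio differed by 0.172 per kb of merged exons (0.157 to 0.196 with a library left out), by 0.0359 in CPM and by 0.103 per kb of the longest coding transcript, the last chosen after seeing the data. Of 26 called genes that the naming rule took from the lists, 19 kept their call in each alternative that tested them. The filter at 5 CPM removed Lmo2, Nfe2, Gzmb and Ccr7 of these 19. Lyl1, not called, turned to 0.11 without vehicle library 2, to 0.0187 without RGFP966 library 1 and to 0.062 without RGFP966 library 2 (lowest -0.32 with a library left out). Cbfa2t2 turned to 0.0051 with upper-quartile factors and 0.0071 without RGFP966 library 1 (lowest -0.049), and Cbfa2t3 to 0.0094 without vehicle library 3 (lowest -0.48). Id1 and Satb1 had too few counts to be tested.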
